A study of Mus musculus with 6 samples.

Results

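The comparison described here sets 1 library labelled MA9 Shp-1 Δ/Δ, PBS against 1 library labelled MA9 Shp-1 f/f, PBS. MA9 stands for leukaemia driven by MLL-AF9, a fusion of the MLL histone methyltransferase with AF9. A barcode was kept as a cell where 500 or more genes were detected and mitochondrial genes took no more than 10% of its UMIs (unique molecular identifiers, 1 per captured transcript), and these 2 of the study's 6 libraries held 18045 of its 44672 kept cells. Each library's cells were then split into 3 classes: those with at least 3% of their UMIs from Camp and Ngp (Camp/Ngp-high), those outside that class with at least 1 Csf1r UMI (Csf1r-positive), and the rest (remaining cells). All ratios below were taken within a class, because the classes made up very different shares of the 2 libraries. Camp and Ngp encode antimicrobial proteins of the secondary granules of neutrophils, and Csf1r encodes the receptor for macrophage colony-stimulating factor.

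The study profiled bone marrow of leukaemic mice by droplet 3′ single-cell RNA sequencing. Both groups carried the MLL-AF9 fusion and received PBS, the vehicle, and they differed in the label for Shp-1, floxed (f/f) in one and deleted (Δ/Δ) in the other. The labels say that the fusion gene was put into mouse embryonic stem cells. The 4 other libraries were an MA9 pair with the same Shp-1 labels under AraC + Dox chemotherapy and 2 Hoxa9-Meis1 (HM) f/f libraries given PBS or chemotherapy. The age of the animals, the number pooled per library, the Cre driver and the deleted exons are not given in the sources used here, so leukaemic and other cells of the marrow cannot be told apart by genotype.

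Shp-1, encoded by Ptpn6, is a tyrosine phosphatase of blood cells that is recruited to inhibitory receptors with ITIM motifs and to cytokine receptors, where it restrains JAK-STAT and kinase signalling. MLL-AF9 keeps HOXA genes active in myeloid progenitors and holds them short of full maturation. Neutrophils mature in stages that can be read from their granule genes: primary granule proteases such as Elane come first, secondary granule genes such as Ltf, Camp and Ngp follow, and S100a8, S100a9 and the chemokine receptor Cxcr2 mark the later stages.

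Camp, Ngp and Ltf are all on mouse chromosome 9, and Ngp (used by the split) and Ltf (the lowest named gene of the remaining cells) are shown here as the genes on which the granule results turn. The stretches run 5′ to 3′ on the plus strand of GRCm38.p6 from RefSeq, chr9:110419558-110419746 for Ngp and chr9:111019042-111019270 for Ltf. Both stop where the GENCODE vM21 gene begins. Capitals mark TTGCNNAA on either strand, the core letters of the motif bound by C/EBP factors, which include the granule gene regulator Cebpe.
Ngp: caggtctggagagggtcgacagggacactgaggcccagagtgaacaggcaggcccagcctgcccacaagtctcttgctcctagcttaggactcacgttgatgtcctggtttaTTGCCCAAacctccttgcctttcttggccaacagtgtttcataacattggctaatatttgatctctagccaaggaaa
Ltf: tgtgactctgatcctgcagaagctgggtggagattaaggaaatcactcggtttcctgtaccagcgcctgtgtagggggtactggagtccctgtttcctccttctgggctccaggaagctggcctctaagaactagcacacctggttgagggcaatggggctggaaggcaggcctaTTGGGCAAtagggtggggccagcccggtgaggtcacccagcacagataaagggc
The match lies 138 bases before the RefSeq start of Ngp and 75 bases before that of Ltf. In the 250 bases before the start, these letters occurred in 3142 of 32851 RefSeq promoters (9.56%), and a second match in Ngp lay 11 bases before the start. The Camp window held none, which says only that these letters are not in that window. A match is a run of letters and no evidence of binding.

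Ptpn6 itself was read first, since it bears on the labels. Its transcript (GRCm38 chr6:124720707-124738714, minus strand) was read in CPM, counts per 1e6 UMIs. It was 188 CPM (exact Poisson 95% interval 183 to 194) in Camp/Ngp-high cells of the f/f-labelled library and 162 CPM (146 to 179) in those of the Δ/Δ-labelled one. In Csf1r-positive cells it stood at 214 CPM (205 to 222) and 200 CPM (194 to 207), and in remaining cells at 173 CPM (168 to 178) and 165 CPM (162 to 168). The library labelled Δ/Δ was therefore slightly lower in each class, with log2 ratios of -0.22 (-0.38 to -0.07), -0.09 (-0.17 to -0.02) and -0.07 (-0.12 to -0.02), and the transcript was not lost.

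In the AraC + Dox library labelled f/f, Ptpn6 stood at 60.7, 62.5 and 52.4 CPM in Camp/Ngp-high, Csf1r-positive and remaining cells, and in that labelled Δ/Δ at 34.9, 43.5 and 44.0 CPM. The HM libraries held 134, 159 and 129 CPM with PBS and 142, 130 and 94.3 CPM with chemotherapy, in the same order of classes. The library labelled Δ/Δ, PBS thus lay above both chemotherapy MA9 libraries and above both HM libraries in every class. The transcript, slightly lower than under f/f, PBS but not lost, left the label in doubt. The pair is therefore described as the library labelled Δ/Δ and the library labelled f/f throughout. No direction below is tied to loss of Shp-1. A 3′ tag outside deleted exons would not register a deletion. Whether the labels of the libraries Δ/Δ, PBS and f/f, AraC + Dox were exchanged was not tested, and if they were, neither pair would compare the groups its labels name. Among the MA9 libraries Ptpn6 was lower with chemotherapy under either label, and lower under the label Δ/Δ within each treatment, in every class. The Camp/Ngp-high shares given below were 36.9% (PBS) and 33.6% (AraC + Dox) under f/f, and 2.41% and 2.72% under Δ/Δ. In cells with at least 2 UMIs of B cell genes, a lymphoid reference, Ptpn6 was 136 CPM (100.2 to 180.2; 51 cells) under the label f/f and 223 CPM (202 to 246; 455 cells) under Δ/Δ, and in cells with as many T cell UMIs 80.5 CPM (50.4 to 122; 69 cells) and 133 CPM (116 to 153; 372 cells).

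**Figure D1:**
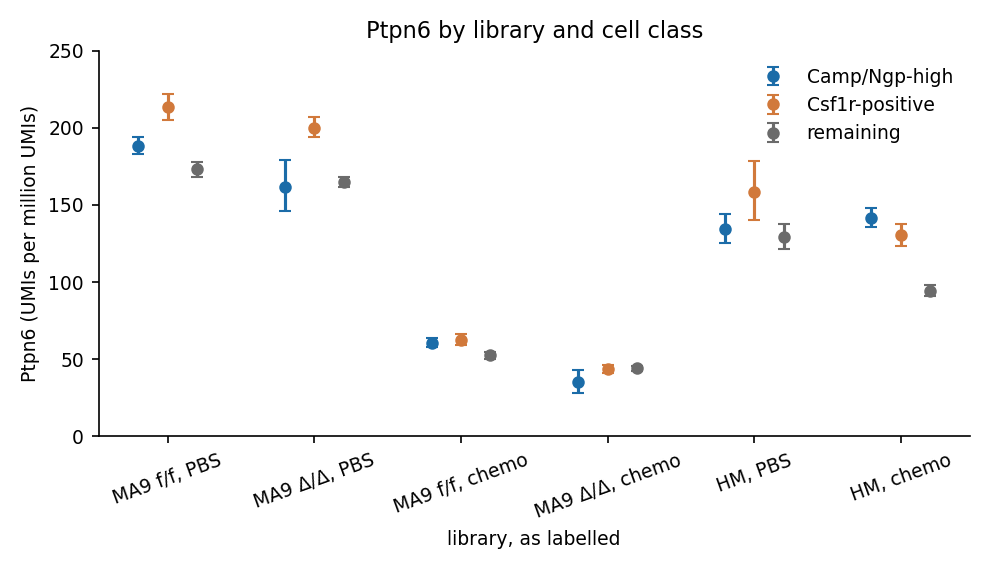
Ptpn6 level in CPM (vertical axis) in each cell class of the 6 libraries, with exact Poisson 95% intervals for counting error. The library labelled MA9 Δ/Δ, PBS stands at 162 to 200 CPM, close to the 173 to 214 CPM of that labelled f/f, PBS, and both chemotherapy MA9 libraries stand under 65 CPM.

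With 1 library a side there is no replicate check. No test was made, and every interval covers counting error only. The library labelled f/f held 9090 barcodes, of which 8614 (94.8%) were kept with 64966638 UMIs, and that labelled Δ/Δ held 10380, of which 9431 (90.9%) were kept with 90247539 UMIs. Median depth per kept cell was 6675 and 7463 UMIs, and 29 barcodes occurred in both libraries. Ratios are log2 of the CPM in the library labelled Δ/Δ over that in the library labelled f/f, so a positive value is higher in the library labelled Δ/Δ. A gene entered the comparison of a class where it reached 20 CPM in 1 of the libraries, and a 2-fold difference was used as a rule of size.

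Camp/Ngp-high cells were 36.9% (35.8 to 37.9; 3175 cells) of the library labelled f/f and 2.41% (2.11 to 2.74; 227 cells) of that labelled Δ/Δ. Csf1r-positive cells were 17.4% (16.6 to 18.2; 1501 cells) and 17.2% (16.4 to 17.9; 1618 cells), and remaining cells 45.7% (44.7 to 46.8; 3938 cells) and 80.4% (79.6 to 81.2; 7586 cells). The first class was thus smaller and the last larger by nearly the same number of percentage points in the library labelled Δ/Δ, and the Csf1r-positive intervals overlapped. Cells just inside the limit, with 3% to 4% of UMIs from Camp and Ngp, were 13.3% of the Camp/Ngp-high class in the library labelled f/f (421 of 3175) and 23.8% in that labelled Δ/Δ (54 of 227), so the smaller class rested more on cells near the limit. In both libraries most Csf1r-positive cells rested on a single UMI (928 and 1040 cells), so this class depends on depth, and its cells were deeper in the library labelled Δ/Δ (median 9664 against 6691 UMIs). Thinned to 3000 UMIs a cell, Csf1r-positive cells were 10.1% and 8.13%, and Camp/Ngp-high cells 40.2% and 2.88%.

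The chemotherapy pair, labelled in the same way, had 33.6% and 2.72% Camp/Ngp-high, 22.1% and 25.5% Csf1r-positive and 44.3% and 71.8% remaining cells. The 2 pairs share no library.

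**Figure D2:**
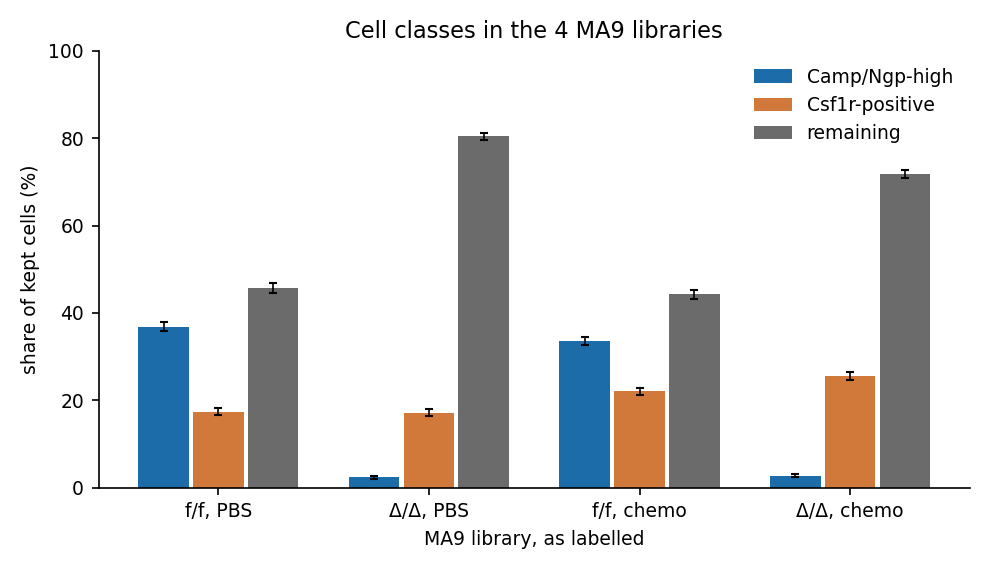
Share of kept cells in each class (vertical axis, percent) for the MA9 libraries, with exact binomial 95% intervals for counting error. The bar for Camp/Ngp-high cells stands at 36.9% in the library labelled f/f, PBS and at 2.41% in that labelled Δ/Δ, PBS, and the bars for Csf1r-positive cells of that pair are level at 17.4% and 17.2%.

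The split matters for what a gene ratio says. Over all kept cells, 6152 genes were compared, and 232 (3.77%) were higher by 2-fold or more and 238 (3.87%) lower. Past 1.5-fold, 13% were higher and 8.58% lower. With median-of-ratios scaling, which lowers every ratio by 0.14, the same cells gave 160 higher and 305 lower. When the 3 classes were given equal weight in both libraries (19.1%, 19.0% and 61.9% of UMIs, the mean of the pair), 82 genes were higher and 92 lower by 2-fold or more of 6034. The secondary and tertiary granule list had a median ratio of -2.38 over all kept cells and -0.63 at equal class mix. The stem and progenitor list moved less, from 1.36 to 0.87, and Myc and ribosome biogenesis from 0.99 to 0.69.

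Camp/Ngp-high cells of the library labelled Δ/Δ carried more primary granule transcript, more Pim1 and less of the immediate early genes than those labelled f/f. A difference of 2-fold or more was seen upward in 57 (1.07%) and downward in 69 (1.3%) of 5314 genes, and the median ratio of all genes was -0.03. All 12 neutrophil markers were detected in both libraries, and their share of a cell's UMIs was alike, with a median of 21.9% in the library labelled f/f and 21.8% in that labelled Δ/Δ.

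Pim1, a survival kinase induced by JAK-STAT signals (chr17:29490753-29496112), was 25.8 CPM in cells labelled f/f and 191 CPM in those labelled Δ/Δ, a ratio of 2.89 (exact 95% interval 2.71 to 3.07). No other compared gene at 50 CPM or more in either library had a larger ratio in this class. The same gene was 61.8 and 239 CPM in Csf1r-positive cells (1.95, 1.84 to 2.06) and 34.9 and 222 CPM in remaining cells (2.67, 2.58 to 2.76), so it was higher in all 3 classes. In the chemotherapy pair it was 53.6 and 326 CPM, 157 and 313 CPM, and 80.4 and 242 CPM in the same order of classes.

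The primary granule list, 10 genes of the earliest neutrophil granules, had 7 of 10 members at least 1.5-fold higher and 0 lower in Camp/Ngp-high cells, where 4.29% of all genes were that much higher and 5.63% lower. Elane (neutrophil elastase, chr10:79886247-79888215) was 1290 CPM in cells labelled f/f and 3489 CPM in those labelled Δ/Δ, and its neighbour Prtn3 (proteinase 3) 908 and 2521 CPM. Ctsg (cathepsin G) was 136 and 361 CPM, and Ctsc, which activates these proteases, 7.27 and 20.5 CPM. The list's median was 1.04, and 0.68 without cells carrying planned lineage markers, that is, at least 2 UMIs over a list for B cells, T or NK cells, stroma, macrophages, plasmacytoid dendritic cells, basophils or mast cells, or erythroid cells. In remaining cells the plasmacytoid list alone marked 25.2% of those labelled f/f and 50.4% of those labelled Δ/Δ. The B cell list marked 8.51% and 27.0%, at median depths of 10298 and 12237 UMIs. Only 1.22% and 5.79% had at least 2 UMIs of Cd79a, Ms4a1 and Pax5, at 2804.5 and 1647 UMIs. This setting therefore cannot be read as leaving out only cells of other types. The higher level of primary granule genes did not extend to the other classes, where the list's median was 0.20 in Csf1r-positive and -0.04 in remaining cells. Elane was lower there in the library labelled Δ/Δ (1946 and 1323 CPM, 4752 and 3102 CPM). Within Camp/Ngp-high cells of the chemotherapy pair the list's median was 0.34 and Elane was 2431 and 3162 CPM.

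Secondary and tertiary granule genes differed little inside Camp/Ngp-high cells: 0 of 19 compared were at least 1.5-fold higher and 1 lower, with a median of -0.19. Ltf (lactoferrin) was 2663 and 2339 CPM. The member past 1.5-fold was Ltb4r1, a leukotriene receptor, at 434 and 283 CPM, followed by Lyz2 (lysozyme) at 4229 and 2878 CPM and the collagenase Mmp8 at 139 and 97.7 CPM. Among 18 mature neutrophil genes 3 were at least 1.5-fold higher and 1 lower (median 0.03): the interferon-inducible Ifitm6 was 572 and 1024 CPM and the receptor Trem1, which amplifies inflammatory signals, 39.7 and 16.6 CPM. Camp (42843 and 34991 CPM) and Ngp (24428 and 20700 CPM) chose these cells and are given as a description only.

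Immediate early and stress genes, which respond within minutes to signals and also to tissue handling, were lower in Camp/Ngp-high cells of the library labelled Δ/Δ. Of 17 compared, 13 were at least 1.5-fold lower and 0 higher, with a median of -0.78. The AP-1 factor Fosb was 122 and 17.1 CPM (-2.84), Jun 350 and 67.0 CPM (-2.38) and Fos 181 and 41.4 CPM (-2.13). Dusp1, a phosphatase that switches off MAP kinases, was 151 and 24.3 CPM (-2.64), and Egr1, a zinc finger factor of the same rapid response, 36.5 and 5.97 CPM (-2.61). The list was lower in every class, with medians of -0.73 in Csf1r-positive cells (12 of 20 at least 1.5-fold lower, 1 higher) and -0.37 in remaining cells (5 of 18 lower, 0 higher). Leaving out cells with planned lineage markers brought the Csf1r-positive median to -0.23, and the mean of per-cell CPM gave -0.31.

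**Figure D3:**
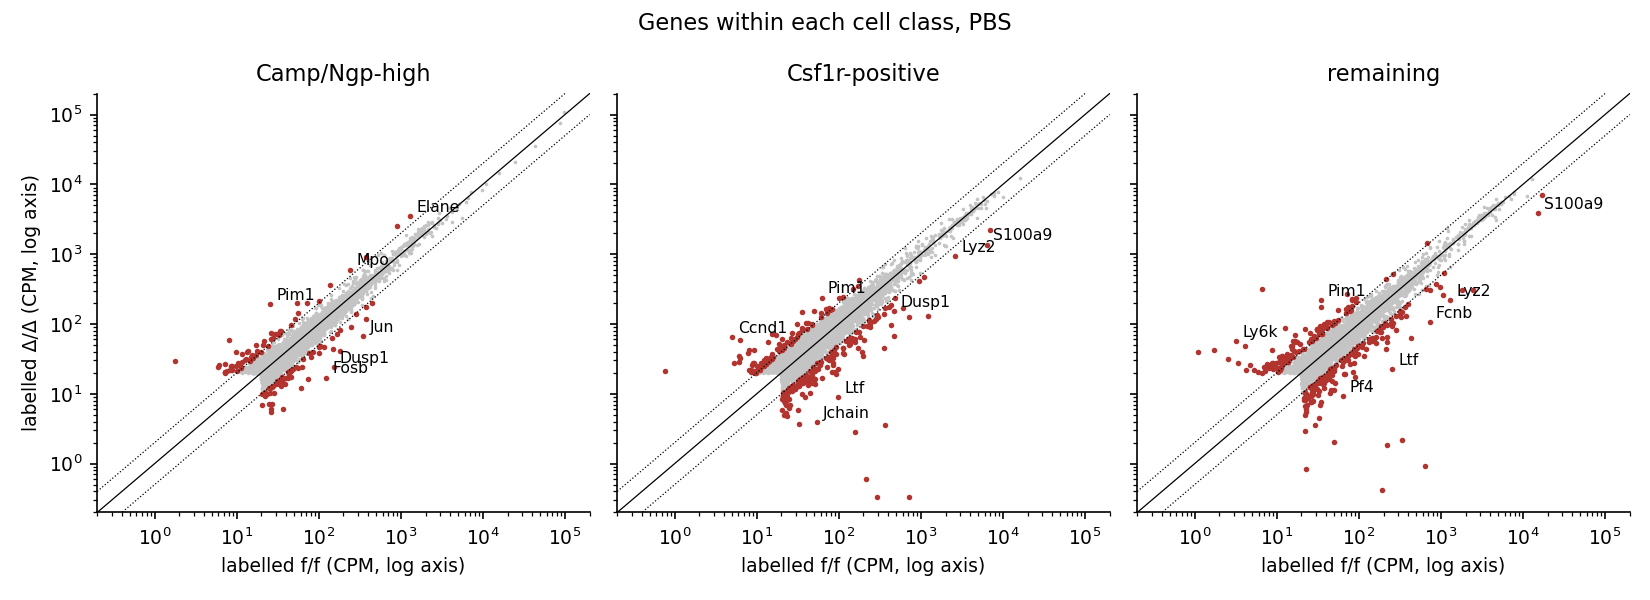
Each point is a gene, with its CPM in the library labelled f/f on the horizontal and in that labelled Δ/Δ on the vertical axis (both log scales), in 1 panel per cell class; dotted lines mark 2-fold and red points lie past it. Genes with 0 UMIs in 1 library are not drawn. Pim1 lies above the upper line in all 3 panels, at 191, 239 and 222 CPM on the vertical axis, and Ltf lies near the diagonal in Camp/Ngp-high cells and below the lower line in the other panels.

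Other genes completed the 10 highest in Camp/Ngp-high cells: the myosin light chain Myl10 (8.08 and 58.9 CPM), the endothelial-type lipase Lipg (53.9 and 198 CPM), Cystm1 (17.2 and 50.8 CPM), the spermidine synthase Srm (21.4 and 56.8 CPM), and the p53 targets Ccng1 (26.0 and 75.1 CPM) and Bax (56.1 and 143 CPM). Bax drives mitochondrial cell death. The 10 lowest also held the chemokine Ccl3 (60.9 and 11.9 CPM), the small GTPase Rhob (150 and 44.4 CPM), the quiescence factor Klf2 (381 and 117 CPM), Crip1 (100 and 38.0 CPM) and the histone genes Hist1h2ab (249 and 91.7 CPM) and Hist1h3f (62.0 and 24.3 CPM). Histone genes have near-identical copies among which reads can be divided, so those values are uncertain. The values for Ccl3 and Crip1 moved by more than 1.5 times under other settings (ratios of -4.02 to -1.51 and -1.51 to -0.42).

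Csf1r-positive cells of the library labelled Δ/Δ had more cyclin, progenitor and ribosome biogenesis transcript and less granule and monocyte transcript. Among 6197 genes, 95 (1.53%) were higher and 162 (2.61%) lower by 2-fold or more, with a median of 0.05 over all genes. The summed level of 10 monocyte markers in this class was 4302 CPM in cells labelled f/f and 2935 CPM in those labelled Δ/Δ, so the cells carried monocyte transcripts in both.

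Ccnd1, the cyclin D1 that opens the G1 phase, was 5.01 CPM in Csf1r-positive cells labelled f/f and 64.6 CPM in those labelled Δ/Δ (3.69, 3.31 to 4.09). Its relative Ccnd2 was 7.90 and 38.2 CPM (2.27). Both were thus low in 1 library and readily seen in the other. In the chemotherapy pair Ccnd1 was 8.71 and 63.6 CPM in the same class.

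Genes of stem and progenitor cells were higher in this class, with 7 of 16 at least 1.5-fold higher and 0 lower (median 0.56, and 0.32 without cells carrying planned lineage markers), beside 8.29% of all genes higher and 7.5% lower. Sox4, a transcription factor of immature cells, was 35.9 and 147 CPM (2.04). The stem cell antigen Ly6a was 8.16 and 42.6 CPM and the repressor Bcl11a 6.03 and 28.7 CPM. The receptor kinase Flt3 was 35.3 and 70.2 CPM, whereas Kit, another receptor kinase of progenitors, was 29.5 and 20.2 CPM, the other way. The MLL-AF9 and Hox target list had medians of -0.05, 0.13 and 0.20 in Camp/Ngp-high, Csf1r-positive and remaining cells. In Csf1r-positive cells Hoxa5 was lower (48.4 and 30.2 CPM) and the survival gene Bcl2 higher (61.1 and 103 CPM).

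Ribosome biogenesis genes under Myc control were at least 1.5-fold higher in 20 of 23 members of Csf1r-positive cells and lower in 0 (median 0.93). The polyamine enzymes Srm (61.4 and 145 CPM) and Odc1 (35.9 and 81.4 CPM), the nucleolar phosphoprotein Nolc1 (69.7 and 164 CPM) and Cad (12.7 and 27.0 CPM), which starts pyrimidine synthesis, led the list. The same list had 11 of 20 members higher in Camp/Ngp-high cells (median 0.71) and 14 of 23 in remaining cells (median 0.64), with 0 lower in either. Its direction was thus shared by the 3 classes. Cytosolic ribosomal protein genes were closer to level, with medians of 0.28, 0.08 and 0.11 and 0 of 30 past 1.5-fold in any class.

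Monocyte and macrophage genes of Csf1r-positive cells had 5 of 18 members at least 1.5-fold lower and 0 higher (median -0.46). The matrix protein fibronectin, Fn1, was 115 and 36.6 CPM, the endotoxin co-receptor Cd14 35.8 and 9.99 CPM, and the monocyte factor Klf4 133 and 50.7 CPM. The complement genes C1qa (17.0 and 69.7 CPM) and C1qb (20.4 and 61.5 CPM), made by tissue macrophages, were higher. Cells with at least 2 C1q UMIs were 1.20% of this class (18 cells) in the library labelled f/f and 4.26% (69 cells) in that labelled Δ/Δ, so these levels move with a small number of cells. Adgre1, which encodes the macrophage antigen F4/80, was lower at 73.5 and 33.9 CPM.

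Partners of Shp-1 were lower in this class, but not without cells carrying planned lineage markers: of 23 inhibitory receptors, kinases and substrates compared, 9 were at least 1.5-fold lower and 0 higher (median -0.55). Clec4a2, an ITIM-bearing lectin of dendritic cells and neutrophils, was 202 and 59.3 CPM (-1.77), the sialic acid receptor Cd33 113 and 46.0 CPM (-1.29) and Lilrb4a 21.2 and 9.26 CPM. The granulocyte colony-stimulating factor receptor, Csf3r, was 54.9 and 27.2 CPM. Leaving out every cell with 2 UMIs of any planned lineage marker list brought the median of the list to 0.03 in this class (3 of 24 lower, 2 higher), and the mean of per-cell CPM gave -0.12. The first of these settings kept 544 of 1501 Csf1r-positive cells labelled f/f and 352 of 1618 labelled Δ/Δ. In remaining cells the median was -0.52, with 9 of 23 lower and 1 higher, and it was -0.11 without those cells, with 3 of 25 lower and 1 higher. Lowest there was again Clec4a2 (284 and 81.9 CPM), then the adhesion receptor Ceacam1 (77.3 and 26.6 CPM), Cd33 (144 and 63.5 CPM) and Pilra (80.6 and 37.1 CPM). Camp/Ngp-high cells had 1 of 24 lower, Siglece (42.3 and 16.6 CPM). Checkpoint ligands were near level, with medians of -0.26, -0.10 and -0.19 and 0 of 5, 2 of 6 and 2 of 5 members lower and 0, 1 and 0 higher in the 3 classes. Among the lower was Vsir, which encodes VISTA, at 131 and 57.3 CPM in Csf1r-positive and 132 and 55.4 CPM in remaining cells.

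Of 15 JAK-STAT genes compared in Csf1r-positive cells 3 were higher and 3 lower by 1.5-fold (median -0.23), so Pim1, Ccnd1 and Ccnd2 stood apart from the rest of that list. The interleukin-6 receptor Il6ra was 134 and 61.6 CPM. The AKT, mTOR and AMPK list had 0 members past 1.5-fold in any class, with medians of -0.02, -0.07 and 0.01.

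Several other named genes stood out in Csf1r-positive cells. Ly6k, a surface protein of the Ly6 family, was 6.2 and 58.6 CPM (3.24), Xlr, an X-linked lymphocyte gene with near-identical copies, 15.3 and 72.5 CPM, Gngt2, a G protein subunit, 13.6 and 54.8 CPM, and Ptprcap, a partner of CD45, 31.1 and 99.5 CPM. Ly6k ran the other way in the chemotherapy pair (89.2 and 23.6 CPM). Among the lowest, Jchain, the joining chain of secreted antibody, was 53.6 and 3.88 CPM (-3.79) here but 1.33 and 59.5 CPM in the chemotherapy pair. The cysteine protease inhibitor genes Stfa1 (470 and 66.4 CPM) and Stfa2l1 (63.0 and 17.1 CPM), which have close copies, the myeloid receptor Lilra6 (90.9 and 20.5 CPM) and the stress factor Atf3 (82.4 and 20.5 CPM) completed the lowest with granule genes taken up below.

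S phase and mitosis genes were also higher in Csf1r-positive cells, mitosis genes only while cells with planned lineage markers were included. S phase genes had 11 of 28 members at least 1.5-fold higher and 0 lower (median 0.52), among them the helicase Hells (59.2 and 117 CPM), and mitosis genes 6 of 24 higher and 0 lower (0.48), among them Ccnb1 (51.7 and 87.2 CPM). Without cells carrying planned lineage markers the S phase median was 0.58 and the mitosis median 0.01, with 0 of 24 mitosis genes higher. In remaining cells the same lists had 2 of 28 and 0 of 24 members higher (0.24 and -0.07). After thinning to 3000 UMIs, 44.4% (41.7 to 47.1) of Csf1r-positive cells labelled f/f and 67.3% (64.7 to 69.8) of those labelled Δ/Δ had at least 2 UMIs over the mitosis list. Camp/Ngp-high cells had 58.6% (56.8 to 60.4) and 67.6% (60.8 to 74.0), and remaining cells 61.6% (59.9 to 63.3) and 68.2% (67.0 to 69.5). The gap was thus widest in Csf1r-positive cells after thinning. Without thinning the shares were 62.9% and 73.6%, 69.5% and 81.5%, and 69.7% and 69.2%, in the order Csf1r-positive, Camp/Ngp-high and remaining. Thinning left out 145 and 252 Csf1r-positive, 230 and 20 Camp/Ngp-high and 887 and 2120 remaining cells of the libraries labelled f/f and Δ/Δ.

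Serine synthesis genes were among the largest metabolic ratios. Phgdh, which opens the pathway, was 9.26 and 41.8 CPM in Csf1r-positive and 15.8 and 57.4 CPM in remaining cells, and the transaminase Psat1 33.0 and 75.1 CPM and 36.8 and 87.5 CPM. The mitochondrial Shmt2, which turns serine into one-carbon units, was 23.5 and 54.3 CPM in Csf1r-positive cells. The whole pentose phosphate and serine list had 5 of 16 higher and 0 lower there (median 0.30), and 3 of 16 higher and 1 lower in remaining cells (0.04). Rpia, of the pentose phosphate branch, was that 1, at 95.4 and 54.1 CPM.

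Glycolysis genes stayed near level in all 3 classes, with medians of 0.11, 0.08 and -0.06 and 1 of 18, 1 of 15 and 0 of 17 members at least 1.5-fold higher. Pfkp, the platelet-type phosphofructokinase, was 19.6 and 25.2 CPM in Camp/Ngp-high cells (0.36, -0.05 to 0.76), 45.9 and 56.6 CPM in Csf1r-positive cells (0.30, 0.15 to 0.46) and 36.3 and 42.7 CPM in remaining cells (0.24, 0.13 to 0.34). Each of these is smaller than its ratio over all kept cells, 0.49. The glucose transporter Slc2a3 was lower in remaining cells (27.7 and 10.1 CPM) and Hk2, the inducible hexokinase, in Csf1r-positive cells (125 and 75.9 CPM). Nuclear respiratory chain genes had medians of 0.13, 0.28 and 0.14 with 0, 3 and 1 of 72 members at least 1.5-fold higher, the tricarboxylic acid cycle 0.01, 0.32 and 0.22, and fatty acid oxidation 0.15, 0.32 and 0.24. The electron carrier Cycs (336 and 529 CPM) and the ATP synthase subunit Atp5g1 (311 and 493 CPM) led the respiratory chain in Csf1r-positive cells.

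Remaining cells, which lack Csf1r UMIs and hold few Camp and Ngp transcripts, had more progenitor and antigen presentation transcript in the library labelled Δ/Δ and far less of the secondary granule genes. By 2-fold or more, 117 (1.9%) of 6146 genes were higher and 173 (2.81%) lower (median of all genes 0.06). The 6 promyelocyte markers summed to 14097 and 12980 CPM in this class, and the 10 progenitor markers to 191 and 485 CPM.

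Of 17 stem and progenitor genes compared in remaining cells, 10 were at least 1.5-fold higher and 0 lower (median 0.93), where 6.17% of all genes were that much higher and 7.16% lower. Sox4 was 34.5 and 175 CPM (2.34, 2.25 to 2.43), Flt3 16.6 and 70.6 CPM (2.09, 1.96 to 2.23), Bcl11a 4.79 and 25.5 CPM and Ly6a 8.74 and 42.9 CPM. Cd34, the sialomucin of progenitors, was 40.8 and 106 CPM and Gata2, a stem cell factor, 13.4 and 33.5 CPM. Each of these named members was higher in the library labelled Δ/Δ. Without cells carrying planned lineage markers the list's median was 0.46. In the chemotherapy pair Sox4 was 11.4 and 55.2 CPM and Flt3 3.26 and 16.5 CPM in remaining cells, while the list's median there was 0.14.

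Other genes higher in remaining cells were Ly6k (3.23 and 56.8 CPM, 4.14), Xlr (12.8 and 86.5 CPM), the fatty acid binding protein Fabp5 (16.9 and 57.9 CPM) and Gpr171 (16.7 and 55.7 CPM), an orphan-type receptor of blood cells. The cell cycle inhibitors Cdkn1a (p21, 22.4 and 84.6 CPM) and Cdkn2c (p18, 17.8 and 55.0 CPM) were also higher. Cdkn1a was 33.3 and 79.4 CPM in Camp/Ngp-high and 50.4 and 154 CPM in Csf1r-positive cells. Of the p53 targets compared, 4 of 9 in Camp/Ngp-high, 5 of 11 in Csf1r-positive and 5 of 9 in remaining cells were at least 1.5-fold higher, and 1, 1 and 0 lower. Phlda3, a p53-induced brake on AKT, was 0.765 and 21.4 CPM in Csf1r-positive cells.

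MHC class I genes, which present peptides to CD8 T cells, were higher in 12 of 19 members of remaining cells by 1.5-fold and lower in 0 (median 0.66). H2-K1 was 309 and 601 CPM, the immunoproteasome subunit Psmb8 349 and 659 CPM and the peptide transporter Tap1 34.8 and 63.9 CPM. H2-Q7, whose near-identical Qa copies share reads, was 16.2 and 40.8 CPM. Csf1r-positive cells had 10 of 20 higher and 0 lower (0.59) and Camp/Ngp-high cells 3 of 16 higher and 0 lower (0.24). Interferon response genes had 10 of 14 members higher and 0 lower in remaining cells (0.86), among them Ifitm1 (4.16 and 48.7 CPM), Ifi203 (33.6 and 93.3 CPM) and the regulator Irf7 (11.7 and 25.9 CPM). Interferon medians in Camp/Ngp-high and Csf1r-positive cells were 0.51 and 0.40, and 0.20 and 0.85 without cells carrying planned lineage markers.

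MHC class II genes were higher in 6 of 9 members of remaining cells (median 1.18), among them H2-Eb1 (15.2 and 43.2 CPM) and the invariant chain Cd74 (74.7 and 174 CPM). Cells of other types moved with this list. Cells with at least 2 UMIs of Cd79a, Ms4a1 and Pax5 were 1.22% (48 cells) of the remaining class in the library labelled f/f and 5.79% (439 cells) in that labelled Δ/Δ, cells with at least 2 Cd3 UMIs 1.60% (63) and 4.73% (359), and the 9 conventional dendritic cell markers, 4 of them class II genes, summed to 164 and 398 CPM. Without cells carrying such B, T, NK, stromal or C1q markers and without remaining or Csf1r-positive cells with at least 5% of UMIs from S100a8 and S100a9 the class II median was -0.05, so its direction did not hold, whereas that of MHC class I was 0.59, that of interferon genes 0.68 and that of stem and progenitor genes 0.80. Without cells carrying planned lineage markers these 4 medians were 0.46, 0.54, 0.83 and 0.46. Class II, MHC class I and stem and progenitor genes thus fell short of 1.5-fold there. Members at least 1.5-fold higher were 1 of 4, 7 of 17 and 6 of 13 in that order. The planned markers include Gata2, a member of the stem and progenitor list, and Bst2, a member of the interferon list. That setting therefore removes cells by genes of the lists it is set against, and is no independent check of them. In Csf1r-positive cells the class II median was -0.14 with them.

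**Figure D4:**
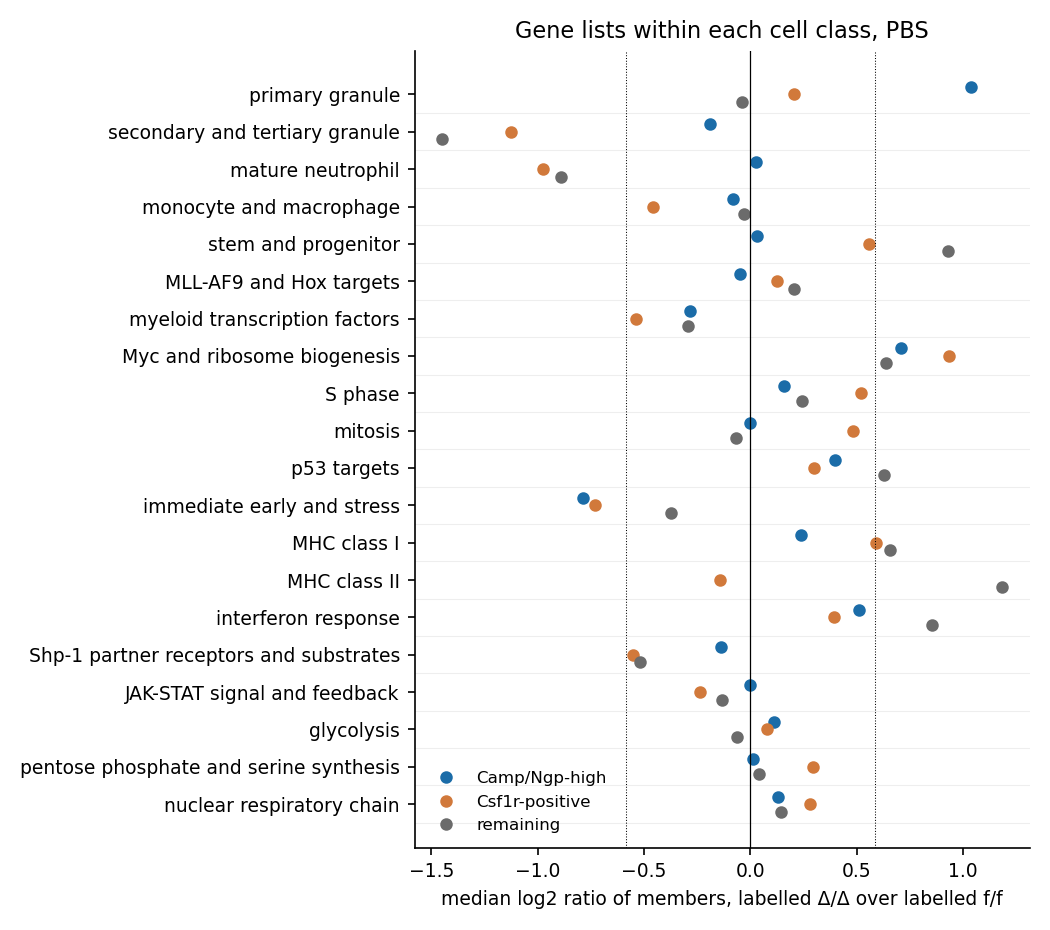
Median log2 ratio of CPM, labelled Δ/Δ over labelled f/f (horizontal axis), for 20 gene lists (rows) in the 3 cell classes (symbols), with dotted lines at 1.5-fold. Primary granule genes lie right of the line in Camp/Ngp-high cells only among the 3 classes (1.04), secondary and tertiary granule genes lie left of it in the other classes (-1.13 and -1.45), and Myc and ribosome biogenesis genes lie right of it in all 3 (0.71, 0.93 and 0.64).

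Among the 20 lists plotted, secondary and tertiary granule genes had the medians farthest from 0 outside Camp/Ngp-high cells. In remaining cells 17 of 18 compared were at least 1.5-fold lower and 0 higher (median -1.45), and in Csf1r-positive cells 16 of 17 (median -1.13). Without cells carrying planned lineage markers the medians were -0.72 (12 of 18 lower) and -0.87 (11 of 18), and without the B, T, NK, stromal, C1q and S100-rich cells named above -1.07 and -0.65. Ltf (chr9:111019271-111042767) was 254 and 22.5 CPM in remaining cells (-3.49, -3.57 to -3.42) and 98.3 and 9.04 CPM in Csf1r-positive cells (-3.44). The lectin Fcnb was 732 and 106 CPM and 197 and 34.8 CPM, Lyz2 1283 and 221 CPM and 2601 and 946 CPM, Mmp8 89.9 and 17.5 CPM and 51.5 and 16.0 CPM, and Ltb4r1 214 and 43.1 CPM and 92.1 and 19.2 CPM. Mature neutrophil genes were lower too, with Retnlg, a secreted resistin-like protein, at 439 and 62.5 CPM and S100a9, a calcium-binding protein of neutrophil cytosol, at 15258 and 3917 CPM in remaining cells. Of 18 compared in that class 14 were at least 1.5-fold lower and 0 higher (median -0.89), but without cells carrying planned lineage markers the median was 0.07. Free RNA in droplets can give a cell UMIs of genes that it does not express, so these levels were read against T cell marker cells of the same library.

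In T cell marker cells of the remaining class the 12 neutrophil markers took a median 0.158% of UMIs in the library labelled f/f (63 cells, median 3140 UMIs) and 0.0254% in that labelled Δ/Δ (359 cells, median 2965 UMIs). Csf1r-positive cells had medians of 0.104% and 0.0242% at median depths of 6691 and 9664 UMIs, and remaining cells with under 5% of UMIs from S100a8 and S100a9 0.178% and 0.0329% at 7630 and 7494 UMIs. Their neutrophil share was therefore close to or below that of T cells in each library. S100a8 and S100a9 are among the 12 markers, so the limit itself bears on the share of the remaining cells under it. For Ltf the remaining cells under that limit had 21.4 and 2.12 CPM and the T cell marker cells 54.3 and 2.06 CPM (12 and 3 UMIs). Retnlg was 12.8 and 4.07 CPM against 321 and 3.43 CPM (71 and 5 UMIs) in T cell marker cells. S100a9 was 3209 and 714 CPM against 3472 and 1098 CPM. For Ltf and Retnlg the cells under that limit thus stood below the T cell marker cells in the library labelled f/f. In that labelled Δ/Δ they stood near them. T cell marker cells were not held to the S100 limit, so their sums can include barcodes with neutrophil transcripts. They are therefore no clean measure of free RNA, and whether the Ltf and Retnlg differences are background was not tested.

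Several other myeloid genes lay above their level in T cell marker cells in both libraries. In remaining cells under the S100 limit Fcnb was 580 and 68.0 CPM (-3.09), against 9.05 and 3.43 CPM in T cell marker cells. Ltb4r1 was 178 and 33.1 CPM (-2.43) against 27.2 and 13 CPM, Clec4a2 244 and 65.3 CPM (-1.90) against 18.1 and 24.0 CPM, and the chitinase-like Chil3 505 and 213 CPM (-1.25) against 72.4 and 73.3 CPM. Cebpe, the factor that drives secondary granule genes, was 290 and 135 CPM (-1.10) against 27.2 and 28.8 CPM. These 5 genes were thus lower in the library labelled Δ/Δ at levels above those of T cell marker cells in both. Fcnb, Ltb4r1 and Chil3 are of the secondary and tertiary granule list, and Clec4a2 and Cebpe are not. Syne1, which encodes a protein of the nuclear envelope, was 160 and 41.9 CPM against 36.2 and 37.0 CPM, near the T cell marker level in the library labelled Δ/Δ. Elane in the same remaining cells was 5052 and 3026 CPM (-0.74) against 40.7 and 414 CPM in T cell marker cells. Mpo, the myeloperoxidase of primary granules, was 2965 and 3100 CPM against 104 and 665 CPM. T cell marker cells labelled Δ/Δ thus carried more Elane and Mpo than those labelled f/f, so the reference itself differed between the libraries.

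**Figure D5:**
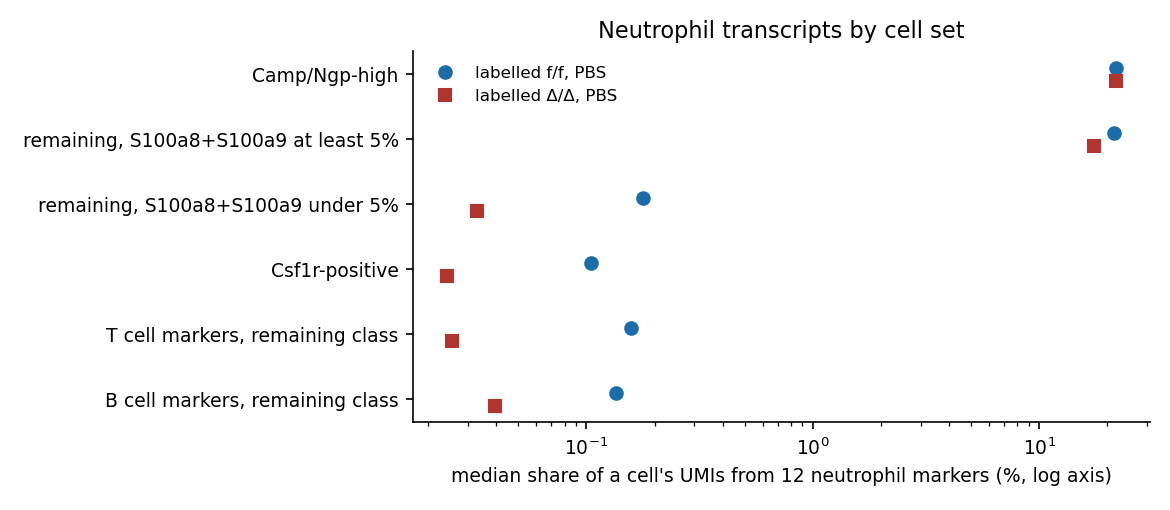
Median percent of a cell's UMIs from 12 neutrophil markers (log axis) in sets of cells of the libraries labelled f/f and Δ/Δ. S100a8 and S100a9, which define some of the sets, are among these markers. Camp/Ngp-high cells stand at 21.9% and 21.8%, remaining cells with at least 5% of UMIs from S100a8 and S100a9 at 21.3% and 17.4%, and the other sets at or under 0.178% and 0.0395%, where cells with T or B cell markers also lie.

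Cells rich in S100a8 and S100a9 were not only in the Camp/Ngp-high class. Remaining cells with at least 5% of UMIs from S100a8 and S100a9 (S100-high) were 11.3% (10.7 to 12; 977 cells) of the library labelled f/f and 8.24% (7.69 to 8.81; 777 cells) of that labelled Δ/Δ. Their intervals did not overlap, and the shares lay much closer to each other than those of Camp/Ngp-high cells. Within the remaining class, however, S100-high cells were 24.8% and 10.2%, so ratios over that class mix unlike shares of them. They held 7108 and 1436 Ltf UMIs, against 530 and 139 in remaining cells under the limit. Of all cells that were either Camp/Ngp-high or S100-high, 23.5% (977 of 4152) were outside the Camp/Ngp-high class in the library labelled f/f and 77.4% (777 of 1004) in that labelled Δ/Δ. Their median share of Camp and Ngp was 1.19% and 0.0886% of UMIs, and 30.4% and 69.8% of them were under 0.5%, so in the library labelled f/f more of them lay near the limit of 3%. A Cxcr2 UMI was found in 45.8% and 59.2% of them at median depths of 3636 and 3160 UMIs. The S100 limit was set after the data were seen. Both its genes are among the 12 neutrophil markers and took a median 19.8% and 16.2% of UMIs in these cells. Their share of neutrophil markers therefore largely follows from the limit and is no separate sign of cell type.

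In these S100-high cells Pim1 was 38.0 and 291 CPM (2.94). Ifitm6 was 523 and 1071 CPM, the cytokine Il1b 47.6 and 150 CPM (1.65) and Cxcr2 199 and 293 CPM (0.55). Lower in the library labelled Δ/Δ were Ltf (1336 and 332 CPM, -2.01), Retnlg (2420 and 946 CPM), Lyz2 (4260 and 1752 CPM) and Jun (422 and 103 CPM, -2.03). Mmp9, of the gelatinase granule, was near level at 871 and 910 CPM, and the siderophore-binding Lcn2 was 4201 and 4987 CPM (0.25). Of the same granule list, Mmp8 was lower (483 and 254 CPM, -0.93) and Hp higher (1908 and 2629 CPM, 0.46). Csf3r was 149 and 153 CPM. Granule genes of this set therefore went different ways, and Ptpn6 was 208 and 169 CPM (-0.30, -0.44 to -0.17).

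Myeloid transcription factors were lower in 8 of 19 members of remaining cells and higher in 3 (median -0.29), and lower in 9 of 19 and higher in 1 in Csf1r-positive cells (-0.53). Id1, an inhibitor of basic helix-loop-helix factors, was 67.1 and 19.3 CPM and 44.6 and 10.2 CPM in those classes. Cebpe was 337 and 147 CPM in remaining cells. The chromatin organiser Satb1 was higher, at 11.5 and 35.3 CPM and 8.92 and 21.3 CPM.

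The chemotherapy pair, which shares no library with this one and differs in treatment, gave these values for the lists. Secondary and tertiary granule genes had medians of 0.12, -1.07 and -1.14 in Camp/Ngp-high, Csf1r-positive and remaining cells, and Myc and ribosome biogenesis genes 0.51, 1.20 and 1.12. Immediate early genes had -0.76, -0.64 and -0.40, Shp-1 partners 0.11, -0.51 and -0.69, and MHC class I 0.36, 0.45 and 0.36. Each lies on the same side of 0 as in the PBS pair except the granule genes and the Shp-1 partners of Camp/Ngp-high cells. Stem and progenitor genes had -0.42, 1.0 and 0.14, and interferon genes 0.44, -0.15 and 0.08. The next counts cover named genes only, which were picked mostly by the size of their ratios in the PBS pair. The share of all compared genes with the same sign was not computed, so the counts cannot be set against it. Of named genes past 2-fold in the PBS pair and at 20 CPM or more in 1 of its libraries, 20 of 23 in Camp/Ngp-high, 33 of 36 in Csf1r-positive and 26 of 28 in remaining cells had the same sign in the chemotherapy pair. The exceptions were Crip1 (53.9 and 61.3 CPM in the chemotherapy pair), Myl10 (37.6 and 32.5 CPM) and Xlr (0.895 and 0.822 CPM) in Camp/Ngp-high cells, Jchain in Csf1r-positive cells, and Ly6k and Cdkn2c in both other classes. Cdkn2c was 32.7 and 23.5 CPM in Csf1r-positive and 27.2 and 15.2 CPM in remaining cells, and Ly6k 25.4 and 11.7 CPM in the latter. Genes with the same sign included Lyz2 in all classes (3321 and 831, 3418 and 894, 1098 and 177 CPM) and Lipg in Camp/Ngp-high cells (75.6 and 390 CPM). Fcnb in Camp/Ngp-high cells was 1451 and 1828 CPM.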

How the data were processed

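Single-cell RNA was measured in bone marrow of 6 groups of mice, 1 library each, and the 2 MA9 libraries given PBS were compared. The values deposited by the authors are whole UMI counts for each gene in each barcode, with no normalization. Per the file headers and the submitters' processing notes these counts came from Cell Ranger 3.0.2, with alignment to mm10. Per the labels' protocols a Chromium 3′ kit (v2) was used after flushing of the marrow and red cell lysis. Groups were taken from the labels.

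From the counts, each class's UMIs were added up per library and scaled to CPM (python 3.11.15, numpy 2.4.6, scipy 1.17.1, pandas 2.3.3, figures with matplotlib 3.10.9). Log2 ratios carry exact Clopper-Pearson 95% intervals given the total of both counts, and where a library has 0 UMIs of a gene a floor of 3 counts replaces them. Levels and shares carry exact Poisson and binomial intervals. PCR copies are collapsed by UMI, and intervals cover counting error only. With 1 library per group no p-value was computed. Doublets were kept, and removing the top 5% by Scrublet score (scanpy 1.11.5) in each library, 431 and 475 cells, was an alternative.

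The members, the classes and the 27 gene lists were chosen with earlier results of these data known, so no list is independent evidence of its direction. Of the symbols in the lists, 2 matched no gene of the files. Named genes are Ptpn6 and Pfkp, the 10 largest and 10 smallest ratios per class with an interval that leaves out 0 and a level of 50 CPM in at least 1 library, up to 4 members per list with the largest ratios, and cell type markers. Not named were sex-linked, haemoglobin, mitochondrial and ribosomal protein genes, antigen receptor genes and models known by a code. Genes given again in another class or set of cells, and those of the S100-high cells, were chosen after their values were seen. Coordinates come from GENCODE vM21 (GRCm38; 53 of 53 named genes matched by identifier), and promoters from RefSeq on GRCm38.p6. Reads were counted by gene, so overlapping genes and near-identical copies may share them. The size rule was tested on simulated counts with known folds. Those counts held counting error only, so the test says nothing of variation between libraries or animals.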

Additional observations from a re-analysis of the deposited data

Results flagged for a closer look

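Prg2, the major basic protein of eosinophil granules, ran opposite ways in 2 classes of the same pair. In Csf1r-positive cells it was 21.8 CPM in cells labelled f/f and 4.99 CPM in those labelled Δ/Δ, a log2 ratio of -2.12. In remaining cells it was 26.1 and 61.1 CPM, a ratio of 1.23. The difference between the classes was not tested, since each library is a single sample. No other gene that could be named was past 2-fold in opposite directions in 2 classes where it reached 20 CPM in 1 library of each. Below that level, Pf4, the platelet factor, was 1.10 and 10.2 CPM in Csf1r-positive cells (3.21) and 64.6 and 9.17 CPM in remaining cells (-2.82).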

How the results depend on the processing

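No paired analysis was possible because each group has 1 library. The direction of 83 named gene ratios past 2-fold was the same in 891 of 893 alternative values, and 844 were still past 2-fold. Sizes were less stable: 316 values lay outside the counting interval of the reported ratio, and 59 values of 33 ratios differed from it by 1.5-fold or more, 24 of them without planned lineage cells and 12 after thinning. Without planned lineage cells S100a9, Stfa1, Lilra6 and Stfa2l1 in remaining cells were -0.76, -0.78, -0.44 and -0.02, and Atf3, Dusp1 and Stfa2l1 in Csf1r-positive cells -0.80, -0.53 and -0.93, while Gngt2 there was 4.54. The 2 values of opposite direction were both Pf4 in remaining cells, at 1.90 with the mean of per-cell CPM and 5.50 without cells carrying planned lineage markers. For 22 list medians past 1.5-fold, 282 of 284 alternative values had the same sign, 253 were still past 1.5-fold and 41 differed by 0.32 or more on the log2 scale. The exceptions were the mature neutrophil list (0.065 without planned lineage cells) and MHC class II (-0.050 without strict lineage and S100-high cells), both in remaining cells. That last setting was added after seeing the data, and kept 7343 and 7557 cells, against 5367 and 2828 for the planned lineage lists. For the ratios and medians that turned or shrank the cause was not tested beyond the cells left out.

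Class shares (Camp/Ngp-high, Csf1r-positive and remaining) moved with the limits. With Camp and Ngp at 1% they were 46.1%, 16.4% and 37.5% in the library labelled f/f, and 4.28% and 78.7% (first and last class) in that labelled Δ/Δ. At 5% the first and last classes were 27.0% and 54.9%, and 1.36% and 81.5%. With at least 2 Csf1r UMIs the last 2 classes were 6.65% and 56.5%, and 6.13% and 91.5%. Thinned cells gave 40.2%, 10.1% and 49.8%, and 2.88%, 8.13% and 89.0%. With at least 1000 genes shares were 38.7%, 18.4% and 42.9%, and 19.5% and 77.8% (last 2 classes).

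Counts of genes past 2-fold follow the minimum level: at 5 CPM 196 higher and 214 lower in Camp/Ngp-high, 235 and 293 in Csf1r-positive and 273 and 309 in remaining cells, and at 100 CPM 11 and 19, 17 and 55, and 25 and 57. Genes higher in Csf1r-positive cells were 180 with 2 Csf1r UMIs, 225 after thinning and 193 without planned lineage cells. Genes lower were 133 in Camp/Ngp-high cells after thinning and 83 in remaining cells without planned lineage cells.

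Lists past 1.5-fold higher in Csf1r-positive cells, 2 as reported, were 1 with Camp and Ngp at 1%, with the highest Scrublet scores removed, with median-of-ratios scaling or without strict lineage cells, 4 with 2 Csf1r UMIs, 6 after thinning and 5 with per-cell means. Lists lower there, 3 as reported, were 5 at 5% mitochondrial UMIs and 1 with per-cell means or without planned lineage cells. In Camp/Ngp-high cells 2 lists higher became 4 with Scrublet removal and 1 without planned lineage cells or at 100 CPM. In remaining cells 6 higher became 2 without planned lineage cells and 3 at 100 CPM, and 2 lower became 1 without planned lineage cells.

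The Ptpn6 ratio was 0.023 in Csf1r-positive cells with per-cell means, 0.019 there and -0.13 in remaining cells without planned lineage cells. Median-of-ratios scaling moved the share of higher among genes past 2-fold over all kept cells from 49.4% to 34.4%, and past 1.5-fold from 60.2% to 41.3%. Within classes its shift was 0.001, 0.03 and 0.04 on the log2 scale. Each comparison rests on 1 library a side, and depth limits most the 227 Camp/Ngp-high cells labelled Δ/Δ.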

Other observations

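Haemoglobin and stromal transcripts separated the libraries more than most myeloid genes. These genes were chosen after their values were seen. Hbb-bs, a beta-globin chain of red cells, was 103 CPM in Camp/Ngp-high, 716 CPM in Csf1r-positive and 644 CPM in remaining cells of the library labelled f/f. In the library labelled Δ/Δ it was 0 UMIs, 0.333 CPM and 0.916 CPM. In cells with T cell markers it was 27.2 CPM (63 cells) and 2.74 CPM (359 cells). The 10 erythroid markers other than haemoglobin summed to 74.5 CPM in remaining cells labelled f/f and 9.63 CPM in those labelled Δ/Δ, with 1 of 10 at 0 in the latter. Stromal markers went the other way in remaining cells. Col1a1, a collagen chain of bone-forming and mesenchymal cells, was 1.10 and 40.0 CPM and Cxcl12, the niche chemokine that retains stem cells, 3.39 and 27.9 CPM. The 10 stromal markers summed to 13.2 and 154 CPM. Cells with at least 2 collagen UMIs were 3 and 23.

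Sex-linked transcripts differed among B cell marker cells. Xist, the non-coding RNA of the inactive X chromosome, had at least 2 UMIs in 13 kept cells of the library labelled f/f and in 110 of that labelled Δ/Δ. Of these, 2 and 99 carried B cell markers. Of B cell marker cells, 54.9% (28 of 51) in the library labelled f/f and 27.0% (123 of 455) in that labelled Δ/Δ had a UMI of a Y-linked gene. Such a share depends on depth, and B cell marker cells of the remaining class had medians of 2804.5 and 1647 UMIs. Over all kept cells the shares with a Y-linked UMI were 55.3% and 61.8%. No source used here says whether a library pools animals.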
